A study of Mus musculus with 10 samples.

Results

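Nuclear receptors and xenobiotic sensors are the genes of the liver that turn hormones, fatty acids, sterols, bile acids and foreign compounds into changes of transcription. The set described here is a fixed list of 37 such genes, matched by symbol to the deposited expression table. Of these, 35 were found among the 19414 genes of the table, and the expression of the progesterone receptor Pgr and the vitamin D receptor Vdr is not analysed here. A mean of at least 1 CPM (reads of a gene scaled to the same total in every library) over the 10 mice was required for testing. By that measure 32 members were tested, and Nr2f1, Hnf4g and Nr4a2 lay below it.

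The livers came from HET3 females, an outbred-like stock made by crossing inbred strains, in which every animal differs genetically. A standard diet (SD) was given to 5 mice and the Longevity diet (LD) to 5 mice, in both cases for 5 months, and no genetic change or other agent is named in the labels. The title of the series calls the diet methionine-supplemented, and the labels leave unclear whether the stated age of 25 months was reached before or after feeding. Each library is the poly-A selected RNA of 1 mouse, and p-values measure the spread between these mice. No cage, batch or collection time is given.

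A nuclear receptor carries a DNA-binding domain and a ligand-binding domain, and exchanges corepressors for coactivators when its ligand is bound. Many of them bind DNA as a heterodimer with a retinoid X receptor, while steroid receptors pair with themselves. In liver the family is best known for setting fatty acid oxidation, bile acid and cholesterol handling, and the cytochrome P450 enzymes that clear drugs. AHR, the aryl hydrocarbon receptor, is a sensor of foreign aromatic compounds from another protein family and binds DNA together with ARNT.

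The SD libraries had an estimated depth of 42.5 ± 4.35 M reads (M, mega) and the LD libraries 29.9 ± 6.46 M (mean ± SD, n = 5 each, two-sided exact permutation p = 0.0159), within 24.7 to 45.7 M. At the lowest depth 3 reads correspond to 0.121 CPM. Markers of hepatocytes summed to between 97631 and 198648 CPM in the 10 mice, and none of the 8 was at 0 in all of them. Over all 13157 genes tested, 249 (1.89%) passed an adjusted p of 0.05 in limma. The Longevity diet had the higher level for 87 (0.661%) and the lower level for 162 (1.23%). Those numbers became 151 higher and 138 lower with median-of-ratios scaling, and 151 and 148 with quantile scaling. The median log2 change of all genes was -0.11, and both scalings moved it upward, by 0.10 and 0.11. A further measure used is whether the 5 values of a gene on each diet fail to overlap, which held for 264 genes (2.01%) in the higher and 459 genes (3.49%) in the lower direction.

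The results turn on the estrogen receptor gene Esr1 and the pregnane X receptor gene Nr1i2, so the bases in front of their annotated starts are shown. They are the 250 bases upstream of the start in RefSeq on GRCm38.p6, written 5′ to 3′ on the strand of the gene. The 2 Esr1 windows, at chr10:4611739-4611988 and chr10:4709908-4710157, are on the plus strand, and the Nr1i2 window, at chr16:38294825-38295074, is on the minus strand. No base is in capitals, since none of the motifs searched was found in them.
Esr1, first window: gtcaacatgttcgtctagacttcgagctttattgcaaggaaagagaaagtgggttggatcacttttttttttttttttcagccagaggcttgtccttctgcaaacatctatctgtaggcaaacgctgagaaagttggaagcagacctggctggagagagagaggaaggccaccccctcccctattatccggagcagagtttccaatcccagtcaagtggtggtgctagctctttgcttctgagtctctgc
Esr1, second window: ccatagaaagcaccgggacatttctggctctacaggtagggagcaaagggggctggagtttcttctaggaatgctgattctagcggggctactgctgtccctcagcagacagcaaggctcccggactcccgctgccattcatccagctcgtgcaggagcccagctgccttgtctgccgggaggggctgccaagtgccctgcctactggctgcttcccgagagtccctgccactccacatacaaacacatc
Nr1i2: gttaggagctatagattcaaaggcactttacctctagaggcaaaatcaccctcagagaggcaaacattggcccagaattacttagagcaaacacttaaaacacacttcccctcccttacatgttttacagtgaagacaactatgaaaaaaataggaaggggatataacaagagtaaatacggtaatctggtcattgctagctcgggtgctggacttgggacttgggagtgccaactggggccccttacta
GC content was 47.6% and 59.6% in the Esr1 windows and 44% in the Nr1i2 window. The letters searched on both strands were AGGTCA, the core hexamer bound by many nuclear receptors, GCGTG, the core bound by AHR with ARNT, and the palindromic consensus estrogen response element, which can overlap an AGGTCA. This hexamer was present in 14% of all 32851 RefSeq windows of this length and in 9 of 52 windows (17.3%) of the 33 members matched by symbol, which include Vdr. Those 9 windows belong to Nr1h4, Nr5a2, Nr6a1, Pparg, Rarg, Rxra, Rxrg and Thrb. GCGTG was present in 28.2% of all windows and in 22 of the 52 (42.3%), and the palindrome in 0.0639% of all windows and in none of the 52. A match of letters is not evidence of binding, and an absent match holds for these windows only.

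Levels between genes were compared as CPM per kb of the longest GENCODE M21 transcript. The constitutive androstane receptor Nr1i3, a sensor of drugs and bile acids, was highest at a mean of 118 CPM per kb over the 10 mice. It was followed by Hnf4a, which maintains hepatocyte identity, at 86.1, the orphan receptor Nr2f6 at 62.1, Rxra at 57.5 and the liver X receptor Nr1h3 at 49.8 CPM per kb. The corepressor-like receptor Nr0b2 (SHP) stood at 37.7, the bile acid receptor Nr1h4 (FXR) at 36.8, Nr1i2 at 25.9, Nr1h2 at 23.3 and the fatty acid receptor Ppara at 12.9 CPM per kb. Esr1 ranked 21 of 35, at 3.99 CPM per kb. The lowest tested member was Rarb at 0.576, and the untested Nr2f1, Hnf4g and Nr4a2 lay at 0.210, 0.103 and 0.0615 CPM per kb. The ranges over the 10 mice of all 34 pairs of neighbours in this order overlapped, so the order is one of means only.

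**Figure D1:**
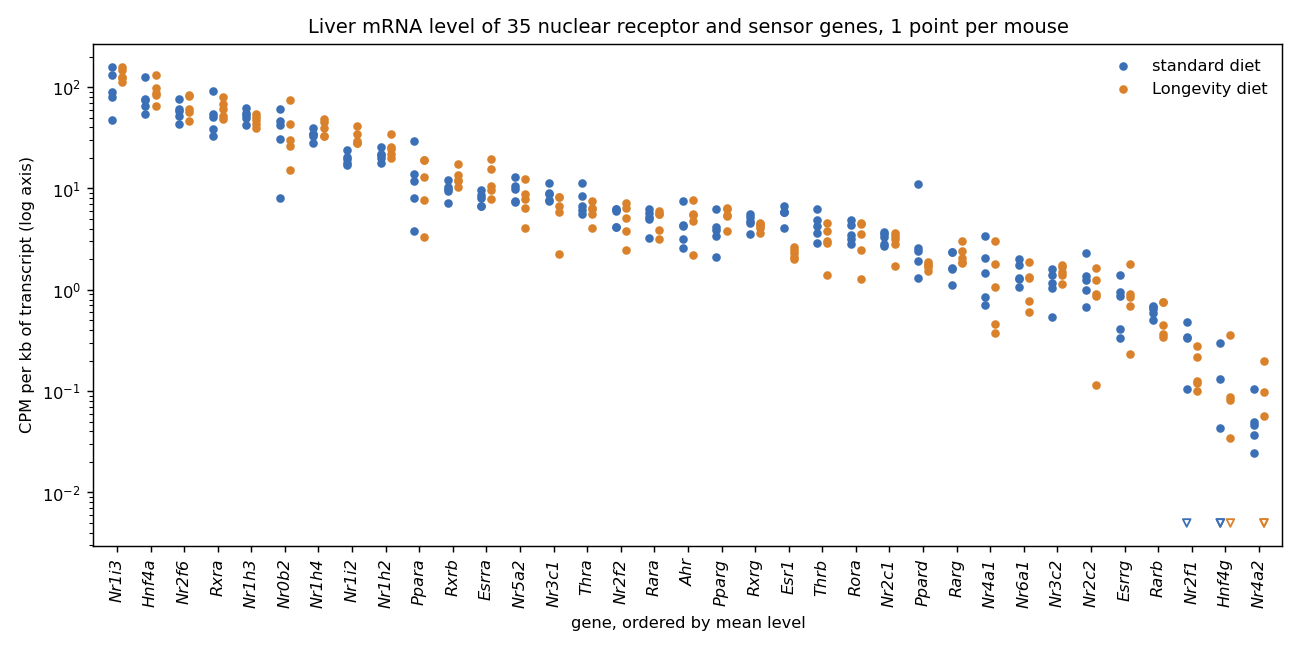
Expression of the 35 members found in the table, as CPM per kb of transcript on a log axis, with 1 point for each of the 5 SD and 5 LD mice and triangles at the foot for values of 0. Nr1i3 and Hnf4a lead and Nr2f1, Hnf4g and Nr4a2 lie lowest, with neighbouring genes overlapping.

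Within most small families a single member made up most of the RNA per length. Rxra supplied between 68.0% and 85.2% of the summed retinoid X receptor level of each mouse, Rxrb 11.5% to 23.5% and Rxrg 3.32% to 10.8%. Hnf4a supplied between 99.45% and 100% of the HNF4 level. The alpha form Nr1h3 made up 60.8% to 75.8% of the liver X receptors, and Rara 58.4% to 74.6% of the retinoic acid receptors. Of the thyroid hormone receptors, Thra made up 51.5% to 84.2% and Thrb 15.8% to 48.5%. The PPAR genes were the most variable family in this respect, with Ppara between 38.0% and 81.3%, Ppard between 6.47% and 41.9%, and Pparg between 11.5% and 44.2% of the family in a mouse. Among the xenobiotic sensors Nr1i3 made up 66.6% to 86.7%, Nr1i2 9.22% to 27.4% and Ahr 1.38% to 6.06%.

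Between the diets 1 of the 32 tested members fell, Esr1, and none rose (limma, adjusted p at 0.05), which is 3.12% of the members beside 1.89% of all genes. An unadjusted p under 0.05 was reached by 3 members (9.38%), Esr1, Nr1i2 and Esrra, while 17.5% of all genes reached it. All 5 Longevity-diet mice lay above all 5 standard-diet mice for Nr1i2 and below them for Esr1, and no other tested member separated in this way. Such separation in either direction thus held for 6.25% of the tested members. Over all genes it held for 2.01% in the higher and 3.49% in the lower direction. The log2 changes were positive for 15 members and negative for 17, with a median of -0.07 beside the median of -0.11 of all genes. Without the mouse LD_405, Nr1i2 also passed (adjusted p = 0.0403), and without any other single mouse it did not.

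**Figure D2:**
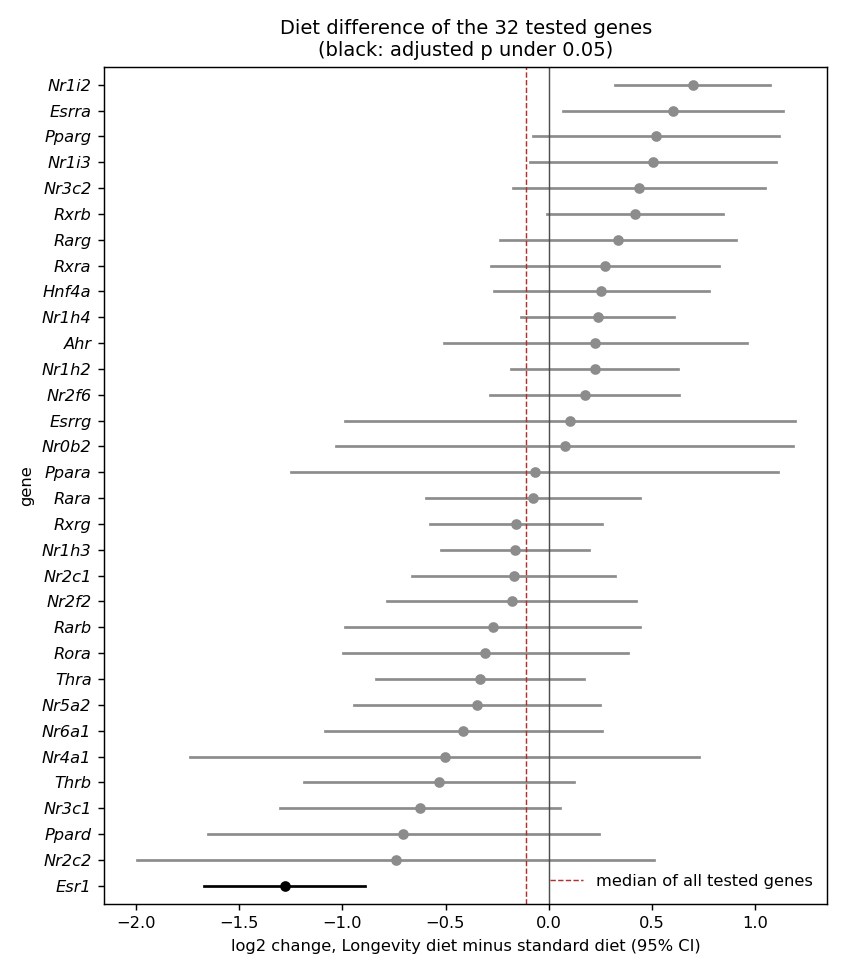
The log2 change of each of the 32 tested members, Longevity diet minus standard diet, with its 95% interval from limma, ordered by size, and the median of all genes tested as a dashed line. The interval of Esr1, the one member past the adjusted threshold, lies below 0, and those of Nr1i2 and Esrra lie above 0.

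Of the steroid receptors, Esr1 (ENSMUSG00000019768.17, mm39 chr10:4561593-4955614, plus strand) encodes estrogen receptor alpha, the main receptor for estradiol in liver. Its CPM was 42.6, 36.96, 36.8, 37.3 and 25.9 in the mice SD_403, SD_501, SD_502, SD_646 and SD_500. In LD_405, LD_513, LD_406, LD_515 and LD_442 it was 14.5, 15.5, 12.9, 13.4 and 16.9 CPM, and all values in this text follow that order of mice. Every mouse on the Longevity diet was below every mouse on the standard diet, and the spread was small on the Longevity diet. The mean fell from 35.9 ± 6.12 to 14.6 ± 1.61 CPM (SD, n = 5 each), which is 2.43-fold lower with a log2 change of -1.28, a standard error of 0.18 and an adjusted p of 0.00442. The 95% interval ran from -1.67 to -0.89. Leaving out any 1 mouse kept Esr1 past the threshold.

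Esr1 is also transcribed in cells other than hepatocytes, and in bulk tissue fewer cells of a type and less RNA per cell cannot be told apart. The 12 markers of sinusoidal endothelium summed to 338 to 484 CPM on the standard diet and 144 to 333 on the Longevity diet. All 12 log2 changes were negative (median -0.72), and none was past the threshold. At an unadjusted p under 0.05 in limma were 8 (66.7%), beside 17.5% of all genes. Of these markers 3 fell without LD_405, 1 without LD_442, 1 with quantile scaling and 4 with 1 weight per library. The 12 markers of stellate cells and fibroblasts summed to 597 to 858 and 370 to 644 CPM (median log2 change -0.81), and 9 (75%) were at an unadjusted p under 0.05. Of these markers 1, the growth factor receptor gene Pdgfrb, fell (10.8 ± 1.97 to 4.35 ± 1.66 CPM, adjusted p = 0.0290). The number of falls in that list was 3 without LD_405 or SD_502, 2 without LD_442, 5 with library weights, and 0 without SD_403, SD_501, SD_500, LD_406 or LD_515.

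Markers of blood and immune cells also had mostly negative log2 changes. This held for 9 of 10 Kupffer cell and macrophage markers (median -0.62, none past the threshold in limma and 1 at an unadjusted p under 0.05, with sums of 435 to 726 and 213 to 733 CPM). It held for 7 of 8 B and T cell markers (median -0.78, none past the threshold and 3 at an unadjusted p under 0.05, sums of 13.7 to 44.9 and 2.54 to 33.1 CPM). It held for the 3 tested neutrophil markers (median -2.64, sums of 5.13 to 80.3 and 1.86 to 6.19 CPM over 6 markers), of which S100a8 fell (13.1 ± 15.5 to 0.343 ± 0.212 CPM, adjusted p = 0.0456). The call of S100a8 was lost without any 1 mouse other than SD_502 (adjusted p up to 0.126), and with median-of-ratios or quantile scaling. Of the Kupffer cell and macrophage markers 2 fell without LD_442, and of the B and T cell markers 1 fell with library weights. Among the tested macrophage, B and T cell, and neutrophil markers, 10%, 37.5% and 66.7% were at an unadjusted p under 0.05 in limma, beside 17.5% of all genes.

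The 8 hepatocyte markers summed to 97631 to 143516 and 142813 to 198648 CPM, sums carried by the most abundant of them. Their log2 changes were negative for 6 of 8 (median -0.33), and 5 (62.5%) were at an unadjusted p under 0.05 in limma, beside 17.5% of all genes. The urea cycle gene Cps1 fell (1598 ± 263 to 830 ± 251 CPM, adjusted p = 0.0376) and none rose. The call of Cps1 was lost without SD_403, SD_501, SD_502, SD_646, SD_500, LD_515 or LD_442 (adjusted p up to 0.0895), and 1 hepatocyte marker rose without SD_502. No marker of these lists was at 0 in all mice. The part of cell makeup in the Esr1 difference was not tested.

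The glucocorticoid receptor Nr3c1, which responds to corticosterone in mice, had 58.2, 49.0, 73.4, 48.8 and 57.0 CPM on the standard diet and 14.4, 53.5, 42.9, 37.6 and 53.4 on the Longevity diet. LD_405 was far below the other mice, and the remaining values overlapped. The log2 change was -0.62 (adjusted p = 0.325). The mineralocorticoid receptor Nr3c2 averaged 6.81 ± 2.37 and 8.81 ± 1.40 CPM (log2 change 0.44, adjusted p = 0.444).

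The estrogen-related receptors have no known estrogen ligand and govern mitochondrial genes together with PGC-1 coactivators. Esrra was at 24.3, 16.6, 16.8, 21.3 and 20.0 CPM on the standard diet and at 38.8, 26.5, 48.3, 23.9 and 19.7 on the Longevity diet. LD_405 and LD_406 were above all other mice and LD_515 and LD_442 lay within the standard-diet range. The log2 change of 0.60 (standard error 0.25, unadjusted p = 0.0292) had an adjusted p of 0.226. Esrrg ranged from 1.80 to 7.56 and from 1.25 to 9.61 CPM, with a log2 change of 0.10 (adjusted p = 0.938).

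Ppara, the receptor that drives fatty acid oxidation and Fgf21 in fasting, varied widely within each diet. Its CPM was 40.6, 12.9, 101, 27.8 and 47.2 on the standard diet and 11.2, 64.6, 26.2, 44.0 and 65.6 on the Longevity diet. The highest mouse exceeded the lowest by 7.81-fold within the standard diet and by 5.83-fold within the Longevity diet, where the medians over all genes were 1.92-fold and 2.24-fold. The means of 45.9 ± 33.5 and 42.3 ± 23.8 CPM gave a log2 change of -0.07 with a 95% interval from -1.25 to 1.11 (adjusted p = 0.962), wide enough to hold a change of more than 2-fold either way. Its sign turned under several settings.

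Ppard, the broadly expressed PPAR, was at 41.2 CPM in SD_403 and between 4.87 and 9.66 CPM in the other 4 mice on the standard diet. On the Longevity diet it lay between 5.74 and 6.97 CPM. The log2 change was -0.70 (adjusted p = 0.426), and -0.21 without SD_403. Pparg, which promotes lipid storage, had 7.29, 8.19, 8.94, 4.43 and 13.4 CPM on the standard diet and 8.14, 11.3, 11.7, 13.4 and 13.6 on the Longevity diet. The ranges overlapped, with a log2 change of 0.52 (adjusted p = 0.355).

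The retinoid X receptors are the shared partners of the heterodimers. Rxra ranged from 161 to 444 CPM on the standard diet and from 235 to 391 on the Longevity diet (log2 change 0.27, adjusted p = 0.611). Rxrb had 25.96, 26.9, 32.1, 18.9 and 24.5 CPM against 45.7, 31.0, 36.1, 27.0 and 32.1. On the standard diet only SD_502 lay above the lowest mouse of the Longevity diet, and the log2 change of 0.42 had an adjusted p of 0.298. Rxrg averaged 9.98 ± 1.67 and 8.86 ± 0.762 CPM (log2 change -0.16, adjusted p = 0.704).

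Among the retinoic acid receptors, which respond to the vitamin A derivative, Rarg had the smallest p. It stood at 4.68, 4.86, 6.96, 3.26 and 6.97 CPM on the standard diet and at 5.56, 9.03, 6.07, 5.42 and 7.15 on the Longevity diet, overlapping widely (log2 change 0.34, adjusted p = 0.535). The log2 changes of Rara and Rarb were -0.07 and -0.27, with adjusted p of 0.899 and 0.703. Of the thyroid hormone receptors, which respond to triiodothyronine, the beta form Thrb had 26.4, 17.9, 39.0, 22.7 and 30.0 CPM against 8.65, 28.4, 19.0, 18.1 and 23.3. LD_405 was the lowest mouse and the others overlapped, with a log2 change of -0.53 (adjusted p = 0.391). Thra had a log2 change of -0.33 (adjusted p = 0.484), and its gene shares 1075 bases with Nr1d1 on the opposite strand, a clock gene at a mean of 118 CPM.

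Hnf4a was at 322, 235, 555, 287 and 330 CPM on the standard diet and at 285, 577, 363, 377 and 425 on the Longevity diet. SD_502 and LD_513 were the highest mice, and the log2 change was 0.25 (adjusted p = 0.618). Hnf4g did not exceed 0.825 CPM in any mouse, and was at 0 in 3 mice, where fewer than 3 reads cannot be told from none.

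None of the sterol and bile acid receptors passed. The 95% intervals of Nr0b2 (-1.03 to 1.18) and Nr5a2 (-0.94 to 0.25) were wide. The bile acid receptor Nr1h4 had 65.7, 56.2, 68.9, 79.0 and 68.7 CPM on the standard diet and 66.3, 80.3, 96.8, 66.8 and 91.0 on the Longevity diet. The 3 highest values were of the Longevity diet and the rest overlapped, with a log2 change of 0.24 and a 95% interval from -0.14 to 0.61 (adjusted p = 0.505). The liver X receptors Nr1h2 and Nr1h3, which sense oxysterols, had log2 changes of 0.22 and -0.16 (adjusted p = 0.565 and 0.643). Nr5a2 (LRH-1), an activator of bile acid synthesis, had -0.35 (adjusted p = 0.538). Nr0b2, which FXR induces to repress bile acid synthesis, ranged from 9.09 to 69.5 and from 17.3 to 83.9 CPM, a spread of 7.65-fold and 4.85-fold within the diets (log2 change 0.08, adjusted p = 0.954).

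Nr1i2 (ENSMUSG00000022809.5, mm39 chr16:38068685-38115186, minus strand) encodes PXR, the receptor for steroids and many drugs that induces Cyp3a genes. It was at 52.1, 50.2, 43.1, 60.8 and 45.6 CPM on the standard diet and at 74.7, 105, 87.8, 71.3 and 71.4 on the Longevity diet. Every mouse on the Longevity diet was above every mouse on the standard diet. The mean of 82.0 ± 14.5 was 1.62-fold that of 50.4 ± 6.85 CPM, a log2 change of 0.70 with a standard error of 0.17 and a 95% interval from 0.32 to 1.07. With an unadjusted p of 0.00142 the adjusted p was 0.0630, so Nr1i2 did not pass. It passed with median-of-ratios scaling (adjusted p = 0.0357), with 1 weight per library (0.0117) and without LD_405 (0.0403). In the other 17 of 20 alternative settings it did not pass. These include leaving out any 1 mouse other than LD_405 (adjusted p up to 0.164).

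Nr1i3, on mm39 chr1:171041539-171048270, had 240, 143, 473, 392 and 265 CPM on the standard diet and 377, 437, 370, 334 and 471 on the Longevity diet. The Longevity-diet values lay within the broad standard-diet range (302 ± 130 and 398 ± 55.2 CPM, log2 change 0.50, adjusted p = 0.368). It overlaps Tomm40l on the opposite strand over 4691 bases, and the strand setting of the counting is not given. Overlap with a protein-coding gene on the opposite strand was present for 6 members. Besides Nr1i3 they were Thra, Esrra, Nr2c2, Nr2f6 (with Ocel1, 5239 bases) and Rarb (with Top2b at a mean of 29.2 CPM, 4624 bases). The same limit holds for their levels. Ahr ranged from 14.3 to 41.5 and from 12.1 to 42.6 CPM, with a log2 change of 0.23 (adjusted p = 0.763).

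**Figure D3:**
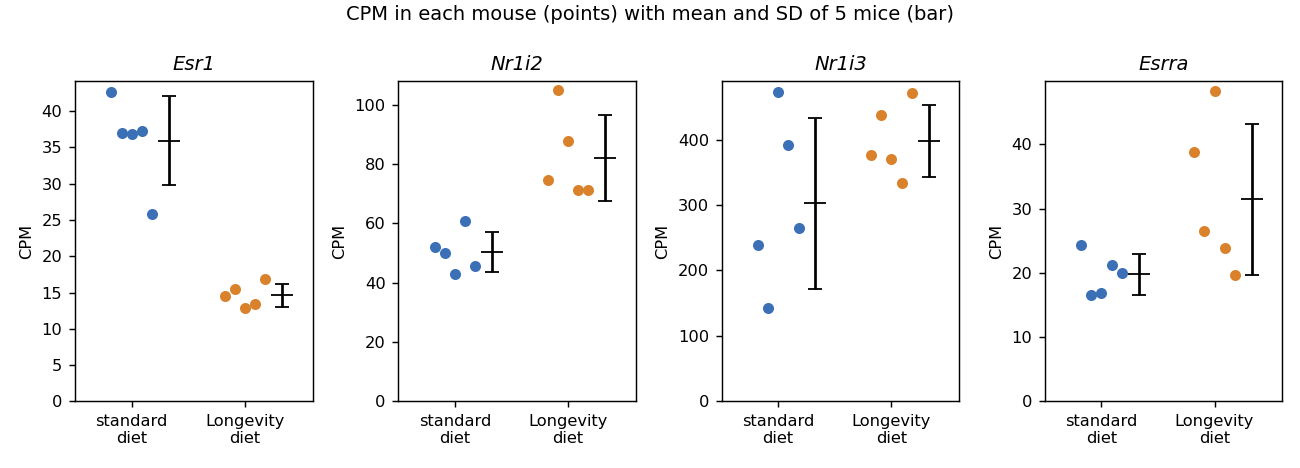
CPM of Esr1, Nr1i2, Nr1i3 and Esrra in each of the 5 SD and 5 LD mice, with the mean and SD of each diet. The diets separate for Esr1 and Nr1i2 and overlap for Nr1i3 and Esrra.

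The orphan receptors, which had no ligand known when named, included no member past the threshold (limma; none at an unadjusted p under 0.05 among 7 tested), and 6 of the 7 log2 changes were negative. The germ cell factor Nr6a1 had the smallest p, with 12.7, 11.2, 8.19, 6.80 and 8.33 CPM on the standard diet and 3.79, 11.8, 4.89, 8.27 and 8.44 on the Longevity diet. LD_405 and LD_406 were lowest and the rest overlapped (log2 change -0.41, adjusted p = 0.515). Nr2c2 ranged from 5.15 to 17.7 CPM on the standard diet and from 0.880 in LD_405 to 12.6 on the Longevity diet (log2 change -0.74, adjusted p = 0.532). Rora, an activator of clock genes, had a log2 change of -0.31 and the immediate early gene Nr4a1 -0.50 (adjusted p = 0.653 and 0.680). Nr2f6, Nr2c1 and Nr2f2 had log2 changes of 0.17, -0.17 and -0.18 (adjusted p = 0.704, 0.733 and 0.772). The untested Nr2f1 and Nr4a2 reached at most 1.53 and 0.707 CPM.

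LD_405 was the lowest mouse in these genes about as often as over all genes. It was the lowest of the 10 mice in 12 of the 32 tested members (37.5%), beside 37.2% of all tested genes. It was the highest in 2 (6.25%, beside 14.5% of all genes), Rxrb and Nr1h2. The 12 were Nr3c1, Esrrg, Ppara, Thrb, Nr5a2, Ahr, Nr2c1, Nr2c2, Nr2f2, Nr4a1, Nr6a1 and Rora, with a median transcript length of 5.46 kb and a GC content of 44.7%. The medians were 2.31 kb and 61.0% for the 2 highest members, and 2.75 kb and 53.4% for the other 18. Across the 32 members, which share 1 library, the log2 deviation of LD_405 from the mean of the other mice had a Pearson correlation of -0.657 with log2 length and 0.655 with GC content, and of -0.456 and 0.426 across 13001 genes. SD_502 was the highest mouse in 9 members (28.1%, beside 20.1% of all genes). Its deviation had a Pearson correlation with log2 length of 0.733 over the members and of 0.464 across 13001 genes. With the slopes on length and GC removed from each library, 1 member still fell, Esr1, and none rose, with Nr1i2 at a log2 change of 0.62 (adjusted p = 0.0501). Since the diets did not overlap for Esr1 and Nr1i2, leaving out 1 mouse could not turn the direction of their change. Esr1 passed the threshold without LD_405 and without SD_502. Nr1i2 passed without LD_405 but not without SD_502 (adjusted p = 0.0957 in limma).

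**Figure D4:**
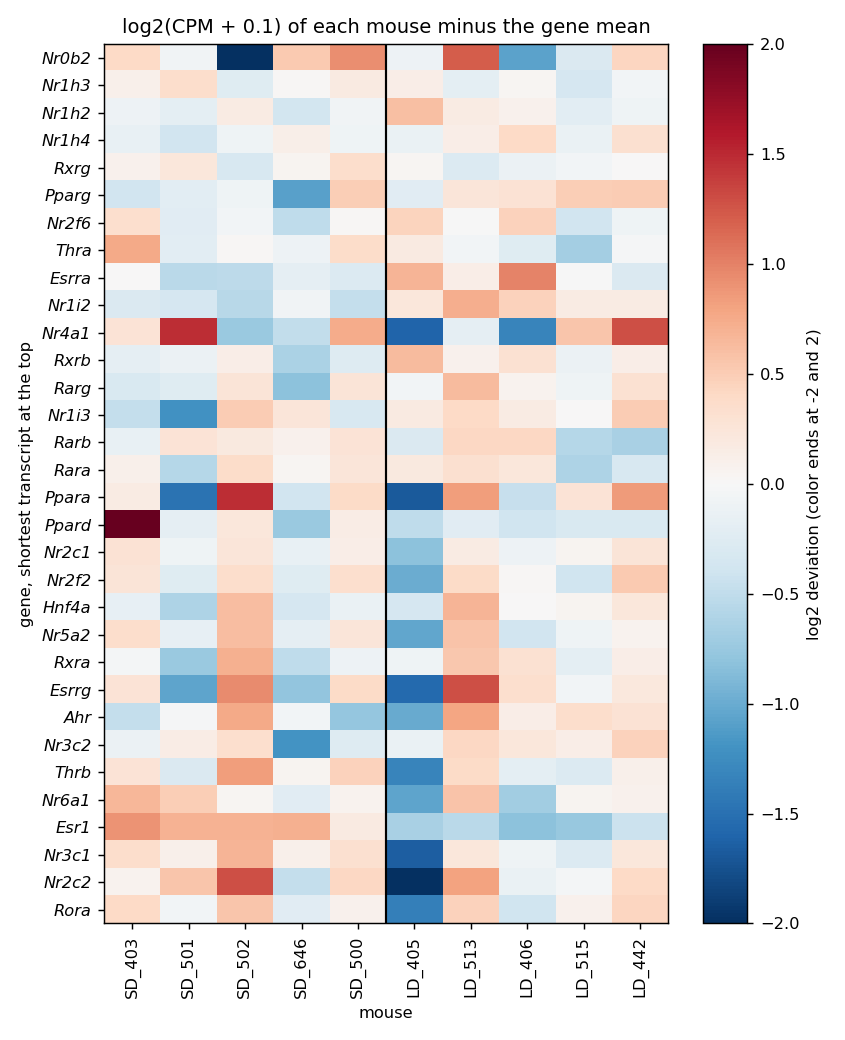
Deviation of each mouse from the mean of the gene over the 10 mice, on the log2(CPM + 0.1) scale, for the 32 tested members ordered from the shortest to the longest transcript, with colors ending at -2 and 2. LD_405 is low in the long members and SD_502 is high in many of them.

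The genes that these receptors are known to control were taken as lists chosen with earlier results of these data known, so their counts describe and support nothing. Targets of CAR and PXR, the phase I and II enzymes and transporters, numbered 30, of which 2 rose and 2 fell (13.3%, beside 1.89% of all genes, median log2 change 0.07). The classical CAR target Cyp2b10 was at 62.0, 52.8, 47.0, 42.4 and 54.5 CPM on the standard diet and at 18.8, 7.09, 12.5, 5.00 and 6.83 on the Longevity diet. No value overlapped, and its mean fell from 51.7 ± 7.48 to 10.1 ± 5.66 CPM (log2 change -2.50, standard error 0.31, adjusted p = 0.00283), while the log2 changes of Nr1i3 and Nr1i2 were 0.50 and 0.70. Cyp2a4, a steroid hydroxylase, rose from a mean of 1321 to 2937 CPM (adjusted p = 0.0117). Cyp3a41a, of the PXR-induced Cyp3a family, went down from 2233 to 703 CPM (adjusted p = 0.0298). Cyp3a11, the classical PXR target of that family and named here after its values were seen, had 532, 1052, 61.5, 379 and 375 CPM on the standard diet and 419, 1285, 2228, 994 and 1404 on the Longevity diet. Its log2 change of 1.68 did not pass (unadjusted p = 0.0280, adjusted p = 0.221). The stress gene Gadd45b rose from 12.6 to 39.0 CPM (adjusted p = 0.0371).

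Single mice decided whether Cyp3a41a and Gadd45b passed. Cyp3a41a missed the threshold without SD_403, SD_501, SD_502, SD_500, LD_406 or LD_515 (adjusted p up to 0.0924), and Gadd45b without SD_403, SD_501, SD_646, SD_500, LD_405, LD_406 or LD_515 (up to 0.104). Without LD_442 the list held 6 rises and 2 falls, without SD_502 4 and 1, and without SD_403 1 and 1. The Cyp2b, Cyp2a and Cyp3a genes have close paralogs between which reads may be split, so their single values are uncertain.

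Targets of PPARA, mostly peroxisomal and mitochondrial fatty acid oxidation genes, numbered 30, of which 6 rose and none fell (20%, beside 1.89% of all genes), with 29 positive log2 changes and a median of 0.76. The hormone gene Fgf21 was at 16.5, 5.33, 17.1, 7.66 and 21.2 CPM on the standard diet and at 47.8, 98.5, 160, 178 and 169 on the Longevity diet (log2 change 3.29, adjusted p = 0.00356), with no overlap. Pex11a, a peroxisome division gene, rose with a log2 change of 1.29 and the mitochondrial thioesterase gene Acot2 with 2.01 (adjusted p = 0.00759 and 0.0114). Hadhb, Acot1 and Cyp4a14 also rose (log2 change 0.76, 3.53 and 4.51, adjusted p = 0.0300, 0.0376 and 0.0446). The number of rises was 3 without SD_403, LD_406, LD_515 or LD_442, 4 without LD_513 and 9 without SD_502, and it was 10 with median-of-ratios scaling and 12 with 1 weight per library. The call of Hadhb was lost without SD_403, SD_501, SD_646, SD_500, LD_406, LD_515 or LD_442 (adjusted p up to 0.0857). The calls of Acot1 and Cyp4a14 were lost without SD_403, SD_502 or any 1 mouse on the Longevity diet (adjusted p up to 0.0929 and 0.104). Beside these values the log2 change of Ppara itself was -0.07.

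**Figure D5:**
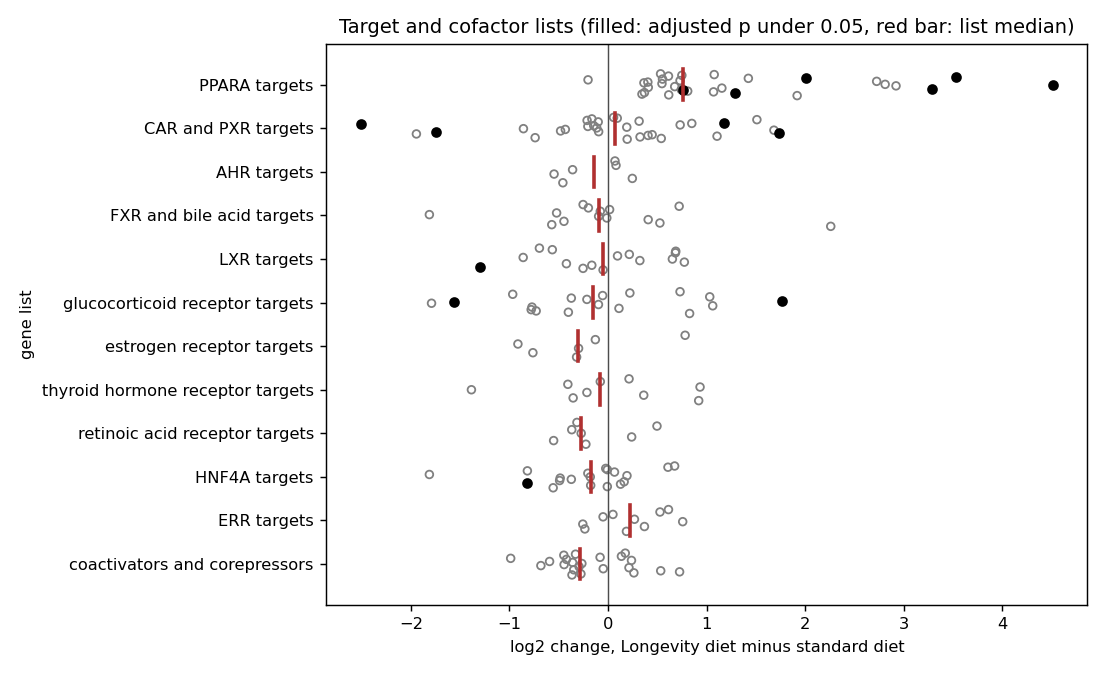
The log2 change of every tested gene in the target and cofactor lists, Longevity diet minus standard diet, with genes past the adjusted threshold marked and the median of each list. The PPARA targets lie mostly above 0, and the medians of the other lists lie between -0.31 and 0.23.

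Of 18 glucocorticoid receptor targets, Lpin1, a phosphatidate phosphatase gene, rose with a log2 change of 1.76 (adjusted p = 0.00360), and the metallothionein gene Mt1 fell with -1.56 (adjusted p = 0.0262). The call of Mt1 was lost without SD_403, SD_501, SD_646 or LD_406 (adjusted p up to 0.0759), and with median-of-ratios scaling. The median log2 change of this list was -0.16. Of 15 liver X receptor targets, Scd1, which desaturates fatty acids, fell with a log2 change of -1.30 (adjusted p = 0.0408). Its call was lost without any 1 mouse other than SD_502 (adjusted p up to 0.0931), and with median-of-ratios scaling. The sterol transporter genes Abcg8 and Abcg5 had log2 changes of 0.68 and 0.69 (adjusted p = 0.0851 and 0.0904). Of 19 HNF4A targets, the urea cycle gene Otc fell with a log2 change of -0.82 (adjusted p = 0.0128), and the list median was -0.18. Genes past the threshold made up 11.1% of the glucocorticoid receptor list, 6.67% of the liver X receptor list and 5.26% of the HNF4A list, beside 1.89% of all genes. An unadjusted p under 0.05 in limma was reached by 50%, 33.3% and 36.8% of these lists, beside 17.5% of all genes. Without SD_502 the glucocorticoid receptor list held 3 rises and the liver X receptor list 2 rises, and without LD_405 the HNF4A list held 2 falls.

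No gene passed in limma among the targets of FXR (14 tested, 7 at an unadjusted p under 0.05), thyroid hormone receptors (9, 2), ERR (10, 3), AHR (6, 1), retinoic acid receptors (7, 1) and estrogen receptors (6, 2). The shares at that unadjusted p were 50%, 22.2%, 30%, 16.7%, 14.3% and 33.3%, beside 17.5% of all genes. In the FXR list the log2 changes ran from -1.81 to 2.26. The median log2 changes of these lists were -0.09, -0.08, 0.23, -0.14, -0.27 and -0.31. Without LD_405 the ERR list held 2 rises, and without SD_502 the FXR, thyroid hormone receptor and ERR lists held 1 rise each. The closest to the threshold were Idh3a of the ERR list, with a log2 change of 0.76 (adjusted p = 0.0812), and the phospholipid transporter gene Abcb4 of the FXR list, with 0.72 (adjusted p = 0.0959).

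Partners of the receptors were likewise without a call. None of 22 coactivators and corepressors passed, and none was at an unadjusted p under 0.05, with a median log2 change of -0.28. Among 8 tested chaperones and AHR partners, 2 were at an unadjusted p under 0.05. Fkbp5, a cochaperone of the glucocorticoid receptor and also one of its targets, averaged 32.2 ± 11.7 and 64.9 ± 18.5 CPM (log2 change 1.03, adjusted p = 0.0624), and passed without LD_405 (adjusted p = 0.0405).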

How the data were processed

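Liver RNA of 10 mice was poly-A selected and sequenced. The deposited values are CPM per gene and mouse, to which the authors added a constant of 0.0001, as the values of the table show, and this was subtracted before use. STAR, Partek and the genome mm39 are named per the submitters' processing notes, without versions. The quantifier, annotation, strand setting and filter on low counts are not given in the sources used here. Depth was estimated from the step between low values. Of values worth less than 100 reads, 84.5% to 88.0% per library were whole reads to a tolerance of 0.1, below the 95% required to treat them as counts, so no count model was used. The floor of 3 reads covers counting error only, and the intervals of log2 changes measure the spread between mice.

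Values were analysed as log2(CPM + 0.1) for genes averaging 1 CPM or more, so folds of low genes are understated. The diets were compared unpaired with limma 3.58.1 (trend, robust, statmod 1.5.0, R 4.3.3), two-sided, with Benjamini-Hochberg adjustment over all genes tested at 0.05. The procedure was run on simulated data with independent noise for each gene and library. That noise held no differences linked to length or GC content, so the run does not cover those seen in LD_405 and SD_502. Genes are said to have risen or fallen only past that threshold. The mm39 coordinates come from the table, whose printed stops were lowered by 1 to give the last base. GENCODE M21 (GRCm38) gave transcript length and GC content for 97.1% of the genes, and RefSeq (GRCm38.p6) the promoter windows. 

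The members and all gene lists were chosen with earlier results of these data known. Every member is accounted for. Each mouse is given for members past the threshold, for the member of smallest p in each role and for members without overlap. All list genes that passed are named, with some of the others among the 4 of smallest p. Cyp3a11 is outside this rule and was chosen after its values were seen. Alternatives were other pseudocounts, filters, scalings and weights, the leading digit of the mouse number as a covariate (its meaning is not given) and leaving out each mouse. Removal of length and GC slopes, and list counts without a mouse, were added after seeing the data.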

Additional observations from a re-analysis of the deposited data

Results flagged for a closer look

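In 4 of 116 groups of 5 mice, from 58 genes on each diet, 1 mouse lay far from the next. The gap was large against the range of the group (above 0.71 of it). Both the highest and the lowest mouse were checked, and all 4 gaps were at the highest. Chance gives about 1 such group in 20 tested at this level, with a gap at either end counted. Ppard was at 41.2 CPM in SD_403, with 9.66 CPM in the next mouse and 4.87 in the lowest of the standard diet. Hnf4g was at 0.825 CPM in LD_442, with 0.203 in the next mouse and 0 in the lowest of the Longevity diet. The liver X receptor target Scd1 was at 6363 CPM in SD_403, with 3164 in the next mouse and 2027 in the lowest of the standard diet. Another gene of that list, Abcg8, was at 229 CPM in LD_405, with 197 in the next mouse and 184 in the lowest of the Longevity diet.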

How the results depend on the processing

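Among the 32 tested members, Esr1 passed the threshold in all 20 alternatives (10 leaving out a mouse, 10 others), with log2 changes from -1.39 to -1.12 and adjusted p from 0.00269 to 0.0265, and 30 members passed in none. The number of members that fell was 1 in all 20. The number that rose was 1 with median-of-ratios scaling, 1 with 1 weight per library and 0 to 1 without single mice, the gene being Nr1i2 in each case. Nr1i2 passed in 3 of the 20 alternatives, over all of which its log2 change was 0.60 to 0.80 and its adjusted p 0.0117 to 0.164. Over all genes 249 changed, against 805 with 1 weight per library, 98 with the leading digit of the mouse number as a covariate, 458 with length and GC slopes removed and 97 to 378 without single mice (97 without SD_403, 378 without LD_405). The sign was kept in all alternatives by 22 members and turned in at least 1 by 10. Ppara turned to 0.0349 with median-of-ratios scaling, 0.275 with library weights and 0.0351 with the digit, and lay between -0.45 and 0.34 without single mice. Rara turned to 0.0293 with median-of-ratios and 0.0036 with quantile scaling (without single mice -0.22 to 0.069), and Rarb to 0.0872 with quantile scaling. Nr0b2 turned to -0.18 with library weights and -0.16 with slopes removed (without single mice -0.41 to 0.35), and Rora to 0.0216 with library weights. Nr2f6 turned to -0.0874 with the digit and -0.155 with slopes removed, and Nr1h2 to -0.0036 with slopes removed. Without single mice Esrrg lay between -0.21 and 0.50, Nr2c1 between -0.26 and 0.0123 and Nr2f2 between -0.33 and 0.0448. The cause was not tested for any of these. Rises in the target and partner lists beside the PPARA list became 2 of the glucocorticoid receptor list, 1 of the chaperone list, 1 of the FXR list, 1 of the liver X receptor list and 2 of the ERR list with median-of-ratios scaling, and 2, 1, 1, 2 and 2 with library weights, which also gave 1 each in the thyroid hormone receptor, HNF4A and estrogen receptor lists. With median-of-ratios scaling no gene fell in the glucocorticoid receptor list or the liver X receptor list. A minimum mean of 5 CPM left no value for Esrrg, Rarb and Nr4a1. No paired analysis was possible because no mouse number occurs on both diets. Depth limits the members below 1 CPM, and 5 mice per diet limit small changes.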
